A study of Mus musculus with 5 samples.

Results

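The genes examined were 9 transcription factors of the muscle lineage, Pax7, Pax3, Myf5, Myf6, Myod1, Myog, Mef2a, Mef2c and Six4, taken by name out of 21938 protein-coding genes. Peaks of all 5 libraries were collected when their nearest base lay within 100 kb of any transcription start site (TSS) of these genes in GENCODE M21 (mm10), and they were split at 3 kb into promoter and distal peaks. After peaks of the 4 mJunB libraries had been merged where they overlapped or touched, 25 mJunB regions lay near these genes, out of 18879 on chromosomes 1 to 19, X and Y. The study mapped binding of mJunB, the mouse JunB protein, in muscle stem cells (MuSCs) by CUT&RUN-seq, in which an antibody brings a nuclease to the protein so that the DNA beside it is released and sequenced. There were 3 mJunB libraries from young mice, 1 from aged mice, and 1 library for H3K27ac, a histone acetylation found on promoters and enhancers in use. The labels do not give the age of the mice behind the last. The labels give neither strain, sex nor age in months, no treatment for single samples, and name the young libraries as biological replicates. The methods give C57BL/6 as the strain of the purchased aged mice and describe sorting of MuSCs of young and aged mice as VCAM+ cells lacking CD45, CD31 and SCA1. The design text speaks of DMSO and MVC, a solvent and the drug Maraviroc, where sample titles have young and aged, and the titles were followed. Peak names of young replicate 1 hold the letters gfp and those of the H3K27ac library the letters wt, and neither is explained in the labels. A GFP+ sort was described for control and JunB-deleted mice, which carried Pax7CreERT2 and R26Yfp, and the sources used here do not say whether a young library came from mice with these alleles.

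Pax7 and Pax3 are paired-box factors that specify the muscle lineage, and Pax7 marks and maintains quiescent MuSCs in adult muscle. Myf5 and Myod1 commit these cells to the myoblast fate, Myog drives their differentiation and Myf6 acts in differentiating cells and myofibres, all as bHLH proteins that pair with E proteins on E-boxes. Mef2a and Mef2c are MADS-box factors that switch on muscle genes together with the bHLH factors, and Six4 is a homeobox factor that acts upstream of them with EYA cofactors. JunB is a subunit of AP-1, a dimer that binds the palindrome TGACTCA, which reads TGAGTCA on the other strand.

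The sequences at the centres of 8 mJunB regions are shown because these were the regions nearest to the members' promoters or found in all 4 mJunB libraries. Each window holds the mean summit of the region and 50 bases to each side on the plus strand of mm10, read from GRCm38.p6, and capitals mark a copy of the AP-1 motif.
Myod1, 54692 bp upstream, chr7:46321430-46321530: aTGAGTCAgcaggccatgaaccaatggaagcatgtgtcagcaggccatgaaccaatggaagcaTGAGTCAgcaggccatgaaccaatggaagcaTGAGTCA
Myod1, 38484 bp upstream, chr7:46337585-46337685: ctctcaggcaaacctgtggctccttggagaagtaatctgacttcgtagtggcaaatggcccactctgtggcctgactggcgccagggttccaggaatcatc
Myod1, 34324 bp upstream, chr7:46341853-46341953: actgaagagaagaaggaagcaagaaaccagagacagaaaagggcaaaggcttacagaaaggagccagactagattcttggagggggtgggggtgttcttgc
Myod1 promoter, chr7:46376130-46376230: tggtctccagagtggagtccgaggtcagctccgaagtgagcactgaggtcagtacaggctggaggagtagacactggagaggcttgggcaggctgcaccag
Myf5, 520 bp upstream, chr10:107486794-107486894: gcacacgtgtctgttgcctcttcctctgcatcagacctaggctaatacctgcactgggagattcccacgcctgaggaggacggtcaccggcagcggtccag
Myf5, 1193 bp upstream, chr10:107487426-107487526: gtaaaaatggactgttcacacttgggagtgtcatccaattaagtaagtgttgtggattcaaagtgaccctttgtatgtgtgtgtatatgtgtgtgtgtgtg
Mef2a promoter, chr7:67373046-67373146: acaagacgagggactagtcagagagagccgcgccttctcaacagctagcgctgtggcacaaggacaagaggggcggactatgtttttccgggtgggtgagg
Mef2c internal TSS, chr13:83524097-83524197: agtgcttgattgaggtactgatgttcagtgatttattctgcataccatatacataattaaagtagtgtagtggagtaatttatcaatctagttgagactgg
AP-1 letters were present in the first of these windows and in none of the other 7.

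The 4 mJunB lists held 9534, 4884 and 3863 peaks for young replicates 1, 2 and 3 and 14123 for aged MuSCs, and the H3K27ac list held 39865. They had not been cut at the same level: listed −log10 p values began at 3.01 in young replicate 1 and the aged library but at 5.33 and 5.22 in the remaining young libraries. The lists give no read counts. The pileup is the number of reads stacked at a summit, and the local background is the number expected there. Both were solved from the fold enrichment and −log10 p of each peak. The lowest backgrounds recurred at several genes, such as 5 reads for H3K27ac, so these values need not measure the locus. A whole-number pileup within 0.001 of the listed −log10 p was found for 99.26% to 99.99% of the peaks of a library. Median pileups were 13, 20 and 14 reads for young replicates 1, 2 and 3, 10 for aged MuSCs and 36 for H3K27ac. Intervals given below for pileups and shares are exact 95% Poisson and binomial intervals, which cover counting error only, and reads without molecular identifiers need not be independent molecules. H3K27ac peaks lay within 3 kb of 5 of 8 MuSC marker genes, although not at Pax7, Myf5 or Calcr, the calcitonin receptor of quiescent MuSCs. Of 3 markers for each other cell type, such peaks lay at none for blood cells, smooth muscle and myofibres, at 1 for endothelial cells and fibro-adipogenic progenitors and at 2 for Schwann cells. Since 49.8% of all coding genes had such a peak and the lists are short, the count at MuSC markers does not set the cell type apart from the background. Since aged MuSCs were represented by 1 library, ages were not tested against each other, and the SD among young libraries is printed next to aged values.

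mJunB peaks lay within 3 kb of Myf5, Myod1, Mef2a and Mef2c, and Myod1, the bHLH determination factor, was the member with such a peak in every mJunB library. Young replicate 1 had promoter peaks at 3 of the 9 members, where 11.0% of all protein-coding genes had one. Young replicate 2 also had them at 3 members against 7.74% of coding genes, and young replicate 3 at 1 member against 5.91%. The young libraries averaged 2.33 ± 1.15 members (SD, n = 3), and the merged young set held 3 members, Myf5, Myod1 and Mef2a, against 12.7% of coding genes. The aged library had promoter peaks at 4 members, those 3 and Mef2c, against 23.9% of coding genes. The aged count was above each young library, by 1 to 3 genes, and the background share was above each young library as well. Any mJunB library had a promoter peak at 4 of 9 members and at 25.8% of coding genes, and all 4 libraries had one at 1 of 9 members and at 4.36% of coding genes. An aged promoter peak without a young one occurred at 1 of 9 members, Mef2c, and at 13.1% of coding genes. H3K27ac peaks lay within 3 kb of 5 members, Pax3, Myf6, Myod1, Mef2a and Six4, close to the 49.8% of all coding genes.

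**Figure D1:**
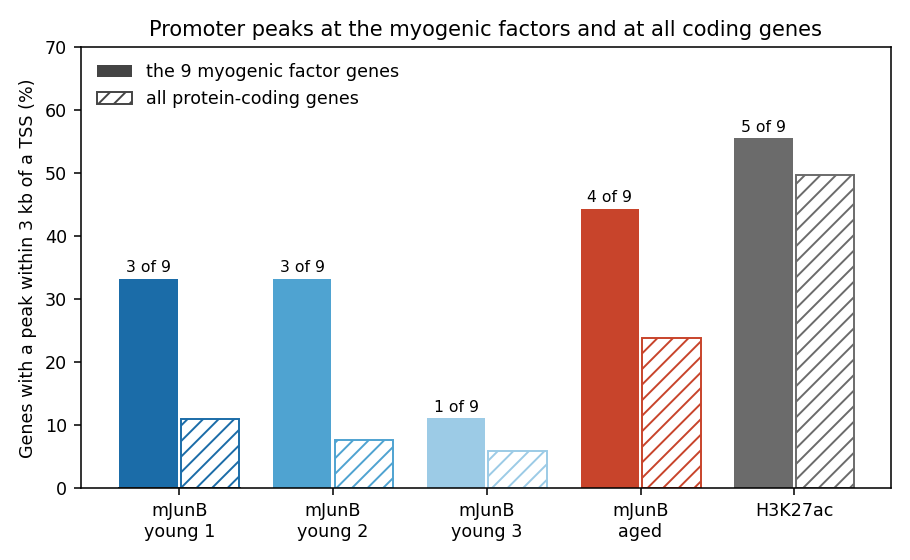
Share of genes with a peak within 3 kb of a TSS (y axis, %) in each of the 5 libraries (x axis), with filled bars for the 9 myogenic factor genes and hatched bars for all 21938 protein-coding genes; numbers above the bars count members. The filled bars stand above the hatched ones in each library, on 3, 3 and 1 members in the young libraries, 4 in the aged library and 5 for H3K27ac.

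Within 100 kb the members held 17, 13 and 8 mJunB peaks for young replicates 1, 2 and 3 and 12 for aged MuSCs, and the young mean was 12.7 ± 4.51 (SD, n = 3). The aged count therefore fell within the young range, while the whole aged list was longer than each young list. Merging the young libraries gave 20 regions. Young peaks within 100 kb occurred at 6 of 9 members and 60.9% of coding genes, aged peaks at 7 of 9 members and 73.5% of coding genes, and H3K27ac peaks at 9 of 9 members and 83.8% of coding genes. A member had a median of 4 mJunB regions within 100 kb, ranging from 0 at Pax3 to 7 at Pax7, where the median coding gene had 2 (quartiles 1 and 4). These counts take each gene's window on its own, so Myf5 and Myf6 both held the same 4 regions. With each region given to the nearest member the median was 2. A member had a median of 7 H3K27ac peaks, ranging from 2 at Mef2c to 11 at Six4, where the median coding gene had 5 (quartiles 2 and 8), and a median of 4 with each peak given to the nearest member.

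**Figure D2:**
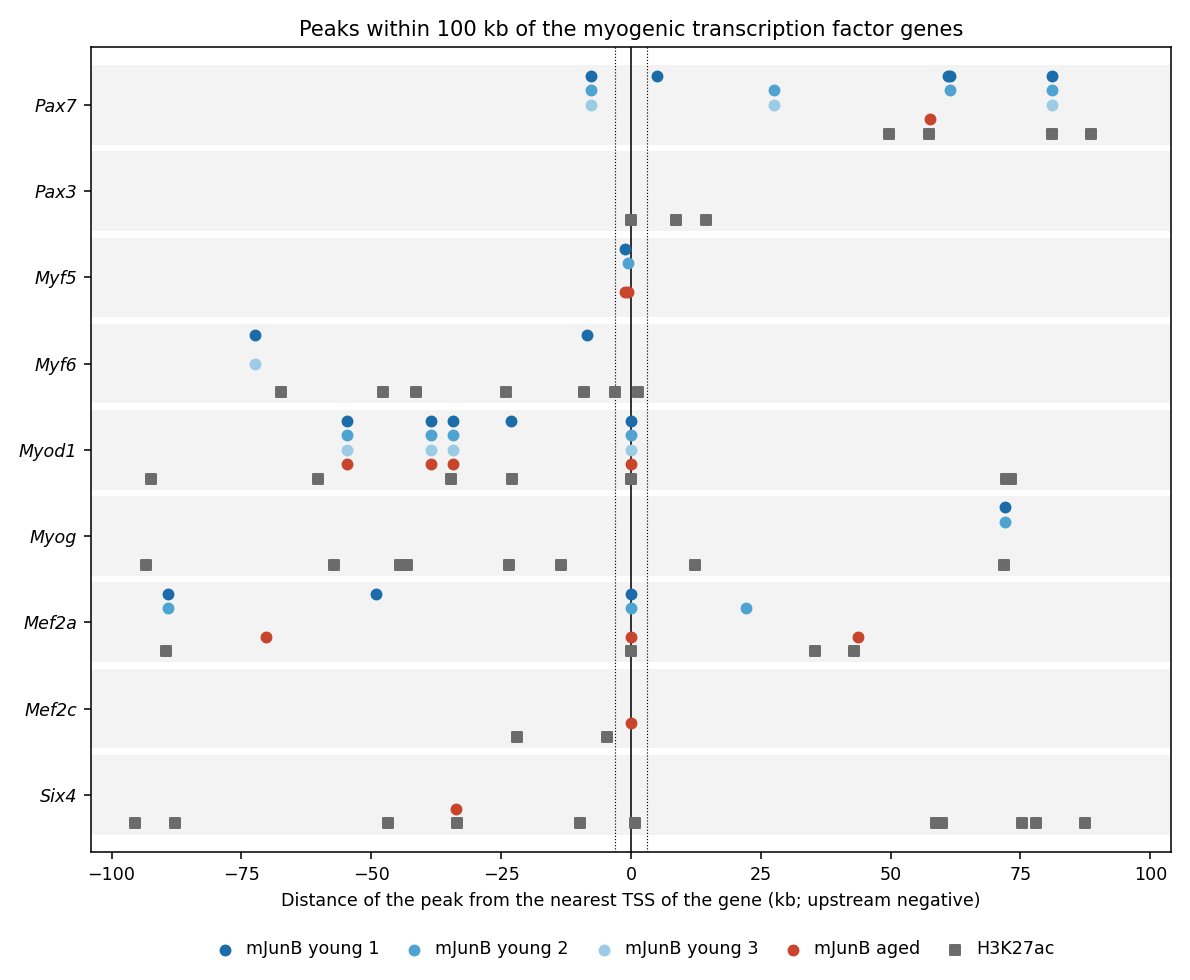
Position of each peak within 100 kb of the 9 genes, as the distance of its region's nearest base from the nearest TSS (x axis, kb, upstream negative), with 1 track of points per mJunB library and squares for H3K27ac; dotted lines mark 3 kb, and a peak near both Myf5 and Myf6 is drawn at the nearer gene. The 4 mJunB tracks line up at 4 positions of Myod1, Pax7 carries young points where the aged track has 1, and Pax3 has H3K27ac squares without mJunB points.

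Of the 25 regions, 5 lay within 3 kb of a member and 20 farther away, 11 of these upstream and 9 downstream, with 7 in introns of the member. For 19 regions the nearest coding TSS belonged to a member, and 2 of the others lay within 3 kb of a TSS of a neighbouring gene. Sharing between libraries was uneven. All 4 mJunB libraries shared 4 of the 25 regions (16%), all of them at Myod1, near the 13.1% of all mJunB regions. A further 3 regions were found in 3 libraries, 7 in a pair of libraries and 11 in 1 library, the latter against 65.8% of all regions. Young libraries alone held 13 of the 25 regions against 25.8% of all regions, the aged library alone held 5 against 45.0%, and 7 were found at both ages. Of the 13 regions of young libraries alone, 6 lay at Pax7. Without Pax7, 18 regions remained, with 7 in young libraries alone, 4 in the aged library alone and 7 at both ages.

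H3K27ac overlapped 9 of the 25 regions, which is 36% (18% to 57.5%) against 42.6% of all mJunB regions. Within 3 kb of a member it was 2 of 5 regions, at Myod1 and Mef2a, where 65.7% of regions near any coding TSS overlapped. Of the distal regions it was 7 of 20, and of the 18 that lay over 3 kb from every coding TSS it was 5, against 32.7% of all such regions. Read from the other side, 9 of the 46 H3K27ac peaks near members overlapped a mJunB region, against 20.1% of all H3K27ac peaks. The share within 3 kb of a member rests on 5 regions and was below its background, which lay inside the interval of 5.27% to 85.3%. The background of 42.6% also lay inside the interval of the share over all 25 regions.

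Myod1 carried the most widely shared mJunB binding of the 9 genes, with 3 distal regions 54692, 38484 and 34324 bp upstream of the TSS and 1 region at the promoter. At the promoter region (chr7:46375993-46376473, mm10), which ended 1 bp upstream of the TSS, the fold enrichment was 8.02, 6.99 and 7.47 in the young libraries, a mean of 7.49 ± 0.516 (SD, n = 3), and 4.66 in the aged library. Pileups were 21, 18 and 11 reads for the young libraries against 8 for the aged one, the latter with an interval of 3.45 to 15.8. The aged value lay below each young one in fold enrichment, by over 1 SD of the young values, and the same region overlapped a H3K27ac peak with a fold enrichment of 4.42 that spanned the TSS. The region 38484 bp upstream (chr7:46337420-46337990) had the highest fold enrichments of the 4, with 9.59, 9.01 and 10.7 in the young libraries, a mean of 9.78 ± 0.885 (SD, n = 3), and 4.12 in the aged library. The young pileups there were 59, 56 and 44 reads, against 12 (6.2 to 21) in the aged library. This region did not overlap H3K27ac, whose nearest peak was 3153 bp away, and its local background was 3.15 to 3.82 times the library median in young and 1.96 times in aged MuSCs.

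The region 34324 bp upstream of Myod1 (chr7:46341514-46342150) had fold enrichments of 8.03, 8.28 and 6.01 in the young libraries, a mean of 7.44 ± 1.25 (SD, n = 3), and 7.32 in the aged library. There the aged value fell inside the young range, the 4 summits lay within 26 bp of each other, and H3K27ac overlapped with a fold enrichment of 3.22. The local background was raised here too, at 3.12 to 3.79 times the library median in young and 2.07 times in aged MuSCs. The region 54692 bp upstream (chr7:46321040-46321782) had 4.57, 6.11 and 7.96 in the young libraries, a mean of 6.21 ± 1.69 (SD, n = 3), and 5.42 in the aged library, also inside the young range. Its summits spread over 391 bp, it did not overlap H3K27ac, and its nearest coding TSS was that of Otog at 25665 bp. The sequence printed for it is a repeat, since the whole region held 6 copies of the AP-1 motif with 24 bases between neighbouring copies in 3 cases, and how reads were placed among such copies was not tested. The aged fold enrichment was thus below each young one at 2 of the 4 Myod1 regions, where 62.7% of the 2468 regions found in all 4 libraries had this order. The ratio of aged to mean young fold enrichment had a median of 0.772 over those regions. It was 0.984 at 34324 bp, 0.873 at 54692 bp, 0.622 at the promoter and 0.421 at 38484 bp. In the same order, 80.7%, 67.2%, 23.3% and 1.9% of the 2468 regions had a ratio at or below these. Fold enrichments of different libraries rest on different depths and backgrounds, and with 1 aged library this order has no replicate check. Another region, 23172 bp upstream (chr7:46353014-46353302), was found in young replicate 1 alone, with a fold enrichment of 5.26 and an overlap with H3K27ac.

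**Figure D3:**
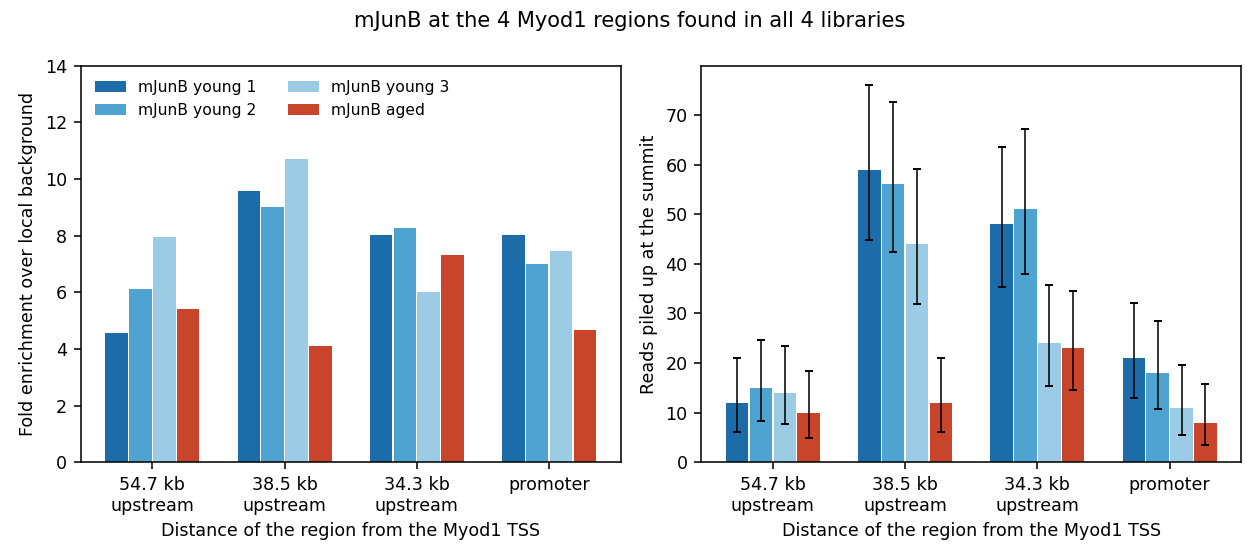
The 4 Myod1 regions found in all 4 mJunB libraries (x axis, distance from the TSS), with fold enrichment over the local background (left y axis, bars) and reads at the summit with exact 95% Poisson intervals (right y axis, bars with whiskers). At 38484 bp upstream the aged bars of 4.12-fold and 12 reads stand apart from the young bars of 9.01 to 10.7-fold and 44 to 59 reads, whereas at 34324 bp upstream the aged fold enrichment of 7.32 lies among the young ones.

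At Myf5, the earliest of the bHLH factors in development, mJunB peaks lay 520 and 1193 bp upstream of the TSS, in a different young library at each. The nearer region (chr10:107486654-107487051) had a fold enrichment of 6.25 in young replicate 2 against 3.76 in aged MuSCs, with pileups of 18 (10.7 to 28.4) and 8 (3.45 to 15.8) reads. The farther region (chr10:107487327-107487890) had 4.65 in young replicate 1 against 5.60 in aged MuSCs, with 12 reads (6.2 to 21) in each. So the aged list held both regions and no young list did, and the order of aged and young fold enrichment differed between them. Neither overlapped H3K27ac, whose nearest peaks were 5316 and 4477 bp away. Myf6 is the neighbouring gene upstream of Myf5 and is known to share regulatory DNA with it, and since their windows overlap each peak was given to the nearer gene. No mJunB peak lay within 3 kb of Myf6, while an H3K27ac peak 1346 bp downstream of its TSS had 127 reads over a background 5.87 times the library median. A mJunB region 8488 bp upstream of Myf6 was found in young replicate 1 (fold enrichment 5.09), 162 bp from an H3K27ac peak. Another, 72319 bp upstream and in an intron of Ptprq, was found in young replicates 1 and 3 (4.57 and 6.44). Both were absent from the aged list.

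Myog, which drives myoblast differentiation, had neither mJunB nor H3K27ac peaks within 3 kb of its TSS. Its 1 mJunB region lay 72092 bp downstream, in young replicates 1 and 2 with fold enrichments of 7.36 and 10.5, but this region was 102 bp from a TSS of Tmem183a and overlapped H3K27ac there. The 8 H3K27ac peaks within 100 kb of Myog lay at distances from 12372 to 93291 bp, and the nearest coding TSS belonged to Myog for 2 of them.

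Pax7 had no peak of any library within 3 kb of its TSSs, including H3K27ac, and 7 mJunB regions farther away, the most of the 9 genes. A region 7610 bp upstream (chr4:139841138-139841597) was found in all 3 young libraries with fold enrichments of 3.68, 6.20 and 6.05, a mean of 5.31 ± 1.41 (SD, n = 3). Another in an intron 80982 bp downstream (chr4:139751685-139752025) had 5.93, 5.15 and 6.66, a mean of 5.91 ± 0.752 (SD, n = 3), and overlapped H3K27ac. The aged list held neither of these, and its 1 peak near Pax7, in an intron 57601 bp downstream, had a fold enrichment of 4.23 on 8 reads (3.45 to 15.8) and overlapped H3K27ac. Intronic regions at 61369, 61073, 27557 and 5030 bp downstream were found in 1 or a pair of young libraries, with fold enrichments from 2.19 to 5.27.

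The local background at Pax7 was high in the young libraries. Over the peaks within 100 kb its median was 9.49, 7.28 and 2.23 reads in young replicates 1, 2 and 3, which was 6.15, 4.3 and 2.67 times the median of the same library, while the aged peak had 1.13 reads or 1.02 times. Among coding genes with a peak within 100 kb, 0.208%, 0.491% and 3.55% had a median local background at least as high for young replicates 1, 2 and 3, and 51.3% for aged MuSCs. In the H3K27ac library the median at Pax7 was 2.49 times, and 1.50% of genes were at least as high. The H3K27ac median was close to this at Myf5 and Myf6, with 2.35 times at each, and was 1.97 times at Six4. The remaining members had 0.639 to 0.817 times, and a single H3K27ac peak at Myf6 had 5.87 times. The medians of the other members ranged from 0.703 to 2.42 times in the mJunB libraries. The highest was that of Myod1 in young replicate 3, near the 2.67 of Pax7 there, and a single Myod1 peak of that library reached 3.82 times. The raised values had limits. The young summits with over 1.5 times the library median reached from 7.91 kb upstream to 149.5 kb downstream of the TSS, across the whole gene, and this rule was chosen after the values were seen. Inside that block the multiples ran from 4.98 to 8.48, 3.41 to 7.37 and 1.97 to 8.03 times in young replicates 1, 2 and 3. Outside it but within 300 kb they ran from 1.08 to 1.23, 0.912 to 1.25 and 0.727 to 1.09 times, a split that the rule itself fixes. The aged library, which the rule did not use, had 0.841 to 1.02 inside on 2 peaks and 0.841 to 1.6 outside on 4. The aged peaks inside had 7 and 8 reads, so the aged side of this contrast is thin. H3K27ac had 1.69 to 3.76 inside and 0.579 to 1 outside, on 7 peaks each. The lowest aged and H3K27ac multiples, 0.841 and 0.579, recurred at several positions and need not measure the locus. Fold enrichment divides by the local background, and the part it played in the 6 young regions at Pax7 was not tested. Whether the young mice carried an altered Pax7 allele is not given in the sources used here, so age and genotype cannot be told apart at this gene.

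**Figure D4:**
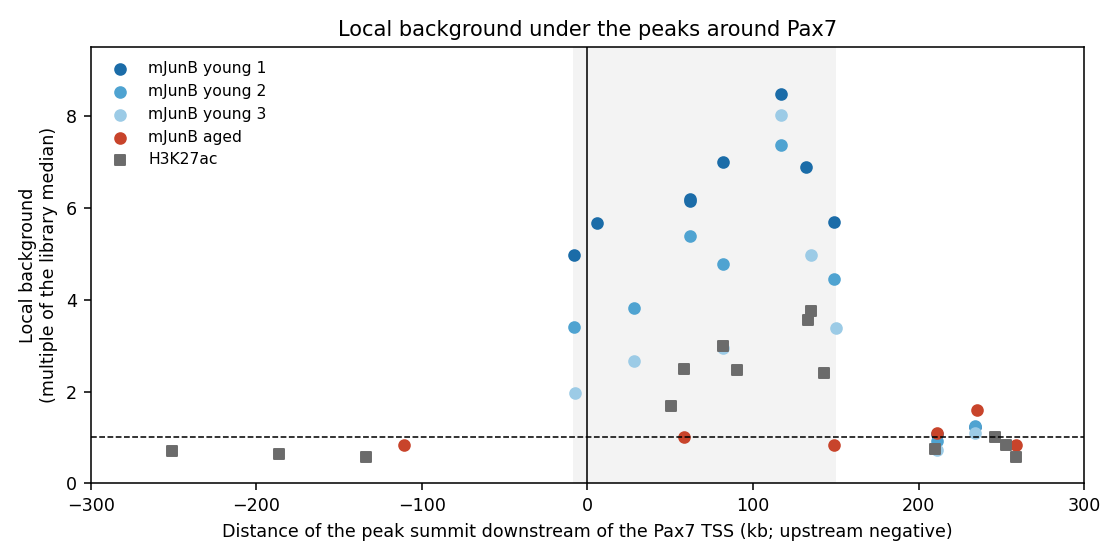
Local background under each peak within 300 kb of Pax7 (y axis, multiple of the median of the same library) against the distance of its summit from the TSS (x axis, kb, upstream negative), with circles for mJunB libraries, squares for H3K27ac and shading from 7.91 kb upstream to 149.5 kb downstream. Inside the shading the young points reach 8.48 and the 2 aged points lie at or below 1.02, and outside it all libraries lie at or below 1.6.

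Pax3, the paralogue of Pax7, had no mJunB peak within 100 kb in any library. It had 3 H3K27ac peaks, 1 of which spanned a TSS (chr1:78196911-78197226) with a fold enrichment of 4 on 23 reads, and the others were intronic, 8653 and 14397 bp downstream.

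Of the MEF2 genes, Mef2a had a promoter region 19 bp upstream of a TSS (chr7:67372877-67373648), found in aged MuSCs and in young replicates 1 and 2, with fold enrichments of 8.02, 6.64 and 6.82. Their pileups were 19, 15 and 16 reads, the summits lay within 7 bp of each other, and H3K27ac overlapped with a fold enrichment of 5.63. Young replicate 3 had no peak there. The aged fold enrichment was above both young ones, while the counting intervals of the pileups overlapped (11.4 to 29.7 in the aged library against 8.4 to 24.7 and 9.15 to 26). The 5 distal regions of Mef2a were each found in 1 library or in young replicates 1 and 2. The aged ones lay 43642 bp downstream (4.49), 24 bp from a TSS of the neighbouring gene Lysmd4 and within H3K27ac, and 70203 bp upstream (6.14). The young ones included an intronic region 22105 bp downstream with 10.1 in young replicate 2. That region also lay in an intron of Lysmd4, which had the nearest coding TSS at 20160 bp. Mef2c has 27 annotated TSSs over 148854 bp, and its 1 mJunB region, in the aged library, spanned an internal one (chr13:83524115-83524359). It had a fold enrichment of 3.63 on 6 reads (2.2 to 13.1), the lowest of the promoter peaks, with a −log10 p of 4.27 that is below the lowest value listed in young replicates 2 and 3.

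Six4 had H3K27ac at an exon 849 bp downstream of its TSS and no mJunB peak within 3 kb. Its 1 mJunB region lay 33703 bp upstream (chr12:73147159-73147403) in the aged list, with a fold enrichment of 5.06 on 10 reads (4.8 to 18.4), inside an intron of Mnat1 and within H3K27ac. Among the members it had the most H3K27ac peaks, 11 within 100 kb.

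The AP-1 motif, TGACTCA or TGAGTCA, lay within 50 bases of the mean summit in 1 of the 25 regions, the Myod1 region 54692 bp upstream, against 4.49% of all mJunB regions. The E-box CAGCTG, which reads the same on both strands, lay there in 1 region, 89099 bp upstream of Mef2a, against 6.08%. The CRE letters TGACGTCA lay in none, against 0.302%. The Myod1 region with the AP-1 motif is a repeat whose mJunB summits spread over 391 bp. Their mean was not the summit of any library, and windows around the summits of single libraries were not searched. In the regions as a whole, which differ in length, 7 of 25 held an AP-1 motif and 25.2% of all regions did, 9 held the E-box against 23.2%, and 0 held the CRE letters against 1.78%. For the E-box the summit-window share rests on 1 region and lay near its background, so its order against the background carries no direction. Median GC content was 51.4% in the members' regions and 48.6% in all regions.

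Partners, inhibitors and targets of these factors were counted in the same way for 43 genes. Young replicates 1, 2 and 3 had promoter peaks at 9, 7 and 4 of them, or 20.9%, 16.3% and 9.3%, against 11.0%, 7.74% and 5.91% of coding genes. The merged young set had them at 12 (27.9%) against 12.7%, the aged library at 17 (39.5%) against 23.9%, and H3K27ac at 25 (58.1%) against 49.8%. The mJunB shares of these genes, which were chosen with earlier results known, stood above the background in each library, and the difference was not tested. The E proteins, which dimerise with the bHLH factors, had aged promoter peaks at 3 of 3 genes and young ones at 2. Of 10 inhibitors of bHLH factors 5 had an aged and 3 a young promoter peak, of 7 MEF2 relatives and deacetylases 5 and 4, of 6 relatives and cofactors of Six4, which are Six2, Six5 and the Eya genes, 2 and 1, of 9 embryonic regulators 1 and 0, and of 8 targets 1 and 2. All 6 of these relatives and cofactors had H3K27ac within 3 kb. Promoter peaks in all 4 mJunB libraries were found at 3 of the 43 genes (6.98%), against 4.36% of coding genes. The first was Tcf4, an E protein, with fold enrichments of 7.26, 10.8 and 6.99 in young MuSCs against 7.05 in aged MuSCs. The second was Bhlhe40, a bHLH repressor, with 12.5, 10.5 and 8.78 against 9.68. The last was Hdac4, a deacetylase that binds and represses MEF2, with 9.92, 13.9 and 11.1 against 9.35. At 8 of the 43 genes (18.6%) an aged promoter peak had no young counterpart, against 13.1% of coding genes, and at 3 (6.98%) the reverse held, against 1.94%.

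The pattern of promoter peaks over the 5 libraries differed in how common it was. Myod1, with a peak in each, shared its pattern with 4.06% of coding genes, itself included, and Mef2a, lacking young replicate 3, with 1.7%. Myf5, with mJunB in aged MuSCs and 2 young libraries but no H3K27ac, had a pattern seen at 26 of 21938 coding genes (0.119%). Mef2c, with an aged peak alone, shared its pattern with 2%, the H3K27ac-alone pattern of Pax3, Myf6 and Six4 held for 27.2%, and the absence of any peak at Pax7 and Myog held for 46.9%.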

How the data were processed

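Lists of CUT&RUN-seq peaks from mouse MuSCs were used (3 young, 1 aged mJunB and 1 H3K27ac library). The authors used Bowtie2 for alignment to mm10 after trimming, discarded redundant reads and ran MACS2 per library with a stated p cutoff of 0.001. Versions and a control library are not given in the sources used here. Per the deposited files, values are the fold enrichment (a ratio of pileup to local background, each with a pseudocount of 1), the −log10 of p and q, and an unused score. The deposited lists hold no counts. The members and lists were chosen with earlier results of these data known. All 9 members were named, with every mJunB region within 3 kb, each region of all 4 libraries, up to 10 distal regions with the highest aged fold enrichment, and the network genes bound in all 4 libraries. A gene of the network list is not reported here.

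Peaks were merged where they overlapped or touched, overlap meant 1 bp, and distances ran from the nearest base to any TSS. A region near several members was given to the nearest. No peak extended past a GRCm38.p6 chromosome end (0 peaks). Pileups were solved from fold and p, an approach chosen after the data were seen. Counts were set beside all protein-coding genes on chromosomes 1 to 19, X and Y, and no test was made. Merging, overlap (against bedtools 2.31.1), windows and pileups were tested on simulated data. Alternatives covered windows, TSSs, summits, thresholds, list lengths, the young set and H3K27ac overlap. Python 3.11.15, numpy 2.4.6, scipy 1.17.1, pysam 0.24.0, samtools 1.23.1 and matplotlib 3.10.9 were used.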

Additional observations from a re-analysis of the deposited data

How the results depend on the processing

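Of 71 recomputed values over 7 results, 59 kept within 1.5 times the main count or, for the share, within its interval, and 12 moved; no direction was tested. Equal list lengths moved most. With the 3863 strongest peaks of each mJunB list, the aged library had 1 member with a promoter peak, Mef2a, and 2 peaks within 100 kb, the merged young set had 13 regions and 1 region was found in all 4 libraries, while 3 members kept young promoter peaks. With the 2000 strongest the values were 1, 2, 6 and 1, and 0 members had a young promoter peak. The merged young set fell to 13 regions within 50 kb and to 12 where a pair of young libraries was required. The stronger part of the H3K27ac list, split at its median −log10 p, left 3 members with a promoter peak. At a −log10 q of at least 2 or the common lowest −log10 p of 5.33 Mef2c lost its aged peak. The share overlapping H3K27ac ranged from 20% to 57.1%. Leaving out 1 young library gave 14 to 20 young regions, 3 members with young promoter peaks, 4 to 5 regions found in all remaining libraries and a share of 36% to 40%, and replicate 1 gave the lowest count of regions. Leaving out Pax7, chosen after the data were seen, gave 14 young regions, 11 aged peaks and 38.9%. The causes were not tested. No paired analysis was possible because replicate numbers belong to young libraries alone and no test was made. Promoter and distal calls rest on pileups as low as 6 reads, so a missing peak does not show missing binding.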

Other observations

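Beyond the 100 kb window, the region with the highest local background around Pax7 lay 117 kb downstream of its TSS and was found in the 3 young libraries, with fold enrichments of 10.2, 11.2 and 14.1 on 143, 150 and 108 reads. The aged list had no peak there. At 149 kb downstream all 4 mJunB libraries had a peak, with fold enrichments of 7.76, 5.62 and 7.56 in young against 4.15 in aged MuSCs, and at 211 kb downstream, outside the block of high background, they had 7.5, 10.6 and 10.6 in young against 8.63 in aged MuSCs. These positions belong to no count within 100 kb, but they enter the limits and ranges of the block of high background. Their part in binding at Pax7 was not tested.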
